A study of Saccharomyces cerevisiae with 21 samples.

Results

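The 48 genes described here encode enzymes of amino acid biosynthesis in budding yeast, Saccharomyces cerevisiae, together with GCN4 (YEL009C), the gene of the transcription factor that activates them when amino acids run short. They were chosen by name, with earlier results of these data known. Their pathways are histidine, arginine, lysine, leucine, isoleucine and valine, tryptophan, shikimate, homoserine and threonine, serine, and glutamate, glutamine and asparagine. The genes are those of the general control group and close relatives, without the methionine genes. They are 48 of 7126 features in the table and 48 of the 6007 protein-coding genes, and all 48 passed the filter on low counts that left 5742 protein-coding genes for the tests. The lowest expected count of any of the 48 genes in any library was 75.

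Nascent RNA, the RNA still bound to RNA polymerase II, was purified through a FLAG-tagged Rpb3 subunit and sequenced from 21 libraries, 3 biological replicates of each of 7 conditions. All strains are MATa derivatives of BY4741 grown in YPD, a rich medium, and according to the labels all carry his3D1, leu2D0, met15D0 and ura3D0 and the tagged RPB3 allele. STH1-AID cells carry a degron on Sth1, the catalytic subunit of the chromatin remodelling complex RSC. RAP1-AID cells carry it on Rap1, a general regulatory factor that binds many strongly transcribed promoters, and RAP1-AID/STH1-AID cells carry it on both. These strains also express OsTIR1 from the GPD1 promoter, integrated with a LEU marker. Each was treated with IAA, an auxin that triggers degradation of the tagged protein, at 500 µM, or with DMSO, the solvent. WT cells have no degron and no OsTIR1 and were left without DMSO. Each contrast of a DMSO control with WT therefore combines these changes, which cannot be told apart. The labels do not say whether replicates of a strain came from separate clones. The values were scaled to the library, so every change below is relative to the other genes of the same library and not an absolute change in transcription.

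General amino acid control works through translation. When uncharged tRNA accumulates, the kinase Gcn2 phosphorylates the initiation factor eIF2, and scanning ribosomes then pass over short upstream reading frames in the GCN4 leader and reach the GCN4 coding region. Gcn4 protein binds TGACTC sequences upstream of its targets and raises their transcription. Nascent RNA of GCN4 therefore reports the transcription of the gene, not the amount of Gcn4 protein. On top of this common control, single pathways have regulators of their own: Leu3, which responds to an intermediate of leucine synthesis, Lys14, which responds to an intermediate of lysine synthesis, and the ArgR complex of Arg80, Arg81, Arg82 and Mcm1, which represses arginine genes when arginine is present.

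The strain labels were compared with the counts of marker genes. LEU2 and LYS2 had 0 expected counts in all 21 libraries, URA3 had 2 counts in 1 WT library and 0 elsewhere, and HIS3 was counted in every library. The absence of LYS2, which encodes aminoadipate reductase of the lysine pathway, is not stated in the labels. MET17, the gene that the allele name met15 refers to, had 0 to 2 counts in the 6 STH1-AID libraries but 593 to 1228 in the other 15, so these 15 libraries went against their met15D0 label. STH1-AID cells thus differ from the other strains also at a gene of methionine synthesis, and its part in any difference between strains was not tested. Totals per library ran between 18289832 and 23182315 expected counts with a median of 20675890, and the 48 genes took between 1.45% and 1.96% of them.

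The letters that these regulators bind were looked for upstream of each gene, on both strands. In the 300 bases before the start codon, the Gcn4 core TGACTC occurred on either strand at 32 of the 48 genes (66.7%), against 466 of 6001 protein-coding genes (7.77%). The longer form TGACTCA, which contains the core, occurred at 21 of the 48 genes (43.8%) and at 2.62% of all genes. The Leu3 core CGGNNCCG was present at 4 of the 48 genes (8.33%), LEU1, ILV3, BAT1 and ARG1, and at 1.1% of all genes. The Lys14 letters TCCNNNGGA were present at 5 of the 48 genes (10.4%), LYS1, LYS9, LYS12, LEU9 and THR4, and at 3.15% of all genes. The Rap1 letters ACCCANNCA were present at HIS4 alone among the 48 genes (2.08%), and at 3.22% of all genes. CGGGTAA, bound by the general regulatory factor Reb1, was found only before TRP5 (2.08%, against 7.9%). CGCGC, letters tied to RSC, was found at 7 of the 48 genes (14.6%, against 12%). The paper links A-tracks (runs of A) and CG(C/G)G with RSC, and neither was searched as such. A match is a description of letters, not proof of a bound site, and the window holds part of the transcribed leader of each gene.

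The HIS4 (YCL030C) promoter is shown first because it is the member whose promoter holds both the Gcn4 and the Rap1 letters. The stretch lies at chrIII:68514-68603 of the R64 build, minus strand, 270 to 181 bases before the start codon, and the capitals mark 3 Gcn4 cores and the Rap1 match.
HIS4: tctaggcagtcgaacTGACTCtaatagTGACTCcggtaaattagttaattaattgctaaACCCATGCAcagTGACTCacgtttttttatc
The next 4 lines show the Leu3 cores in capitals, and for ARG1 also a Gcn4 core on the opposite strand. They lie at chrVII:478850-478879 (minus strand) for LEU1, chrVIII:517375-517404 (plus strand) for BAT1, chrX:466368-466397 (minus strand) for ILV3 and chrXV:218916-218945 (plus strand) for ARG1. The first 3 of these genes are set apart below by their level in WT cells.
LEU1: aacgaaaattcCGGGACCGgcgaaatttgc
BAT1: attgtgtttgcCGGTACCGgcctttaagct
ILV3: ttcgctgcgagCGGAACCGggcctgaaaaa
ARG1: cattaaCGGTGCCGtatggaaGAGTCAttt
The Gcn4 cores of SER1, ARG4, THR1 and GLN1 are shown in capitals because these genes hold the same letters and yet moved in different directions. They lie at chrXV:679161-679190 (plus strand), chrVIII:141564-141593 (minus strand), chrVIII:159325-159354 (plus strand) and chrXVI:641928-641957 (plus strand), in that order.
SER1: gcccaaaagtagTGACTCtttctaagcatc
ARG4: ttagtagatgaaTGACTCactttttggata
THR1: aaatttgtgcaaGAGTCAtcatctcgaaaa
GLN1: atgaattaaagaTGACTCcgacgcatattg
The Lys14 letters of LYS12 are shown for the lysine pathway, at chrIX:187795-187824 on the minus strand.
LYS12: ttcactttttTCCCGTGGAaaaatattctt

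In WT cells, nascent RNA levels of the 48 genes, compared as TPM (scaled to gene length and library), spanned 245-fold. GLN1 (YPR035W), glutamine synthetase, was the highest at 4710 ± 604 TPM (SD, n = 3), followed by ILV5 (YLR355C) at 1556 ± 231 TPM and by GCN4 itself at 975 ± 125 TPM. ARG3 (YJL088W), ornithine carbamoyltransferase, was the lowest at 19.2 ± 2.37 TPM, below LYS1 at 34.4 ± 1.13 TPM and LYS9 at 36.8 ± 4.66 TPM. The median of the 48 genes was 115 TPM against 55.4 TPM over all protein-coding genes, and 40 of the 48 genes lay above that median. Of the 47 neighbouring pairs in the WT order, 10 had libraries that did not overlap, so the levels of most neighbours do not differ beyond their spread. The summed TPM of the 48 genes was 11982 ± 564 in STH1-AID IAA cells against 12094 ± 425 in STH1-AID DMSO cells, 13226 ± 1296 in RAP1-AID IAA cells against 14311 ± 1530 in RAP1-AID DMSO cells, and 15021 ± 932 in RAP1-AID/STH1-AID IAA cells against 15315 ± 1335 in RAP1-AID/STH1-AID DMSO cells, with 14480.5 ± 1438 in WT cells. The libraries of each IAA and DMSO pair overlapped in this sum.

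Depletion of Sth1 moved the group in both directions. A gene is said below to have risen or fallen when edgeR's quasi-likelihood test gave an adjusted p below 0.05. Of the 48 genes, 18 rose and 19 fell in STH1-AID IAA cells relative to STH1-AID DMSO cells, and 35.9% and 40.9% of all tested genes did so. A change of more than 2-fold was seen for 2 of the 48 genes upward (all genes 10.5%) and 8 downward (all genes 15.9%). The median log2 fold change was -0.03 for the 48 genes and -0.06 for all genes. When libraries were scaled by their total alone, which moved the median of all genes to -0.31, 8 of the 48 genes rose and 24 fell, with their median at -0.27. The increases lost in this way were those of HIS1, ARG5,6, CPA1, LYS1, LYS4, LYS9, LEU9, ILV5, HOM6 and GLN1, so the direction of these 10 genes below is relative to TMM scaling.

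Rap1 depletion lowered many of the genes and raised few. In RAP1-AID IAA cells relative to RAP1-AID DMSO cells, 3 of the 48 genes rose and 23 fell (6.25% and 47.9%), where 12.8% of all tested genes rose and 13.3% fell. None of the 48 genes changed by more than 2-fold in either direction, as 1.57% of all genes did upward and 3.19% downward. The median of the 48 genes was -0.28, and that of all genes 0.01. With scaling by library total the split was 6 up and 15 down, the median of the 48 genes -0.16 and the median of all genes 0.13. The decreases lost with that scaling were at ARG5,6, LYS21, TRP4, TRP5, ARO2, HOM2, HOM6 and SER33. The 3 increases, at LYS20, BAT2 and ASN2, rested on single libraries: the count fell to 1 without RAP1-AID DMSO replicate 1 or 3 or without RAP1-AID IAA replicate 2 or 3.

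After co-depletion of both proteins, 13 of the 48 genes rose and 18 fell, where 32.2% of all genes rose and 37.5% fell. More than 2-fold changes numbered 2 upward and 0 downward among the 48 genes, against 7.07% and 5.73% of all genes. The medians were -0.05 for the 48 genes and -0.05 for all genes. With scaling by library total, 9 rose and 27 fell around a median of -0.26 for all genes. The increases of HIS1, ARG3, ARG5,6 and SER1 were lost in this way, and CPA1, ILV2, ILV3, BAT1, TRP5, ARO2, ARO3, THR4 and GDH1 were called as lower.

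The strains also differed from WT without IAA. In STH1-AID DMSO cells relative to WT cells, 21 of the 48 genes were higher and 10 lower (all genes 18.5% and 19.4%), with 1 and 2 beyond 2-fold (all genes 3.57% and 1.99%) and a median of 0.21. In RAP1-AID DMSO cells relative to WT cells, 9 were higher and 16 lower (all genes 22.7% and 22.1%), with 1 and 3 beyond 2-fold (all genes 6.65% and 3.15%) and a median of -0.10. In RAP1-AID/STH1-AID DMSO cells relative to WT cells, 10 were higher and 11 lower (all genes 16.3% and 17%), with 0 and 3 beyond 2-fold (all genes 3.9% and 2.46%) and a median of -0.08. The median of all genes was -0.01 in each of these comparisons. All 3 share the same WT libraries. Scaled by library total, the counts were 31 and 8, 18 and 13, and 13 and 8 in the same order, around medians of all genes of 0.12, 0.17 and 0.13. The 10 higher genes of the double control fell to 5 without WT replicate 2, to 5 without RAP1-AID/STH1-AID DMSO replicate 1 and to 4 without its replicate 3.

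**Figure D1:**
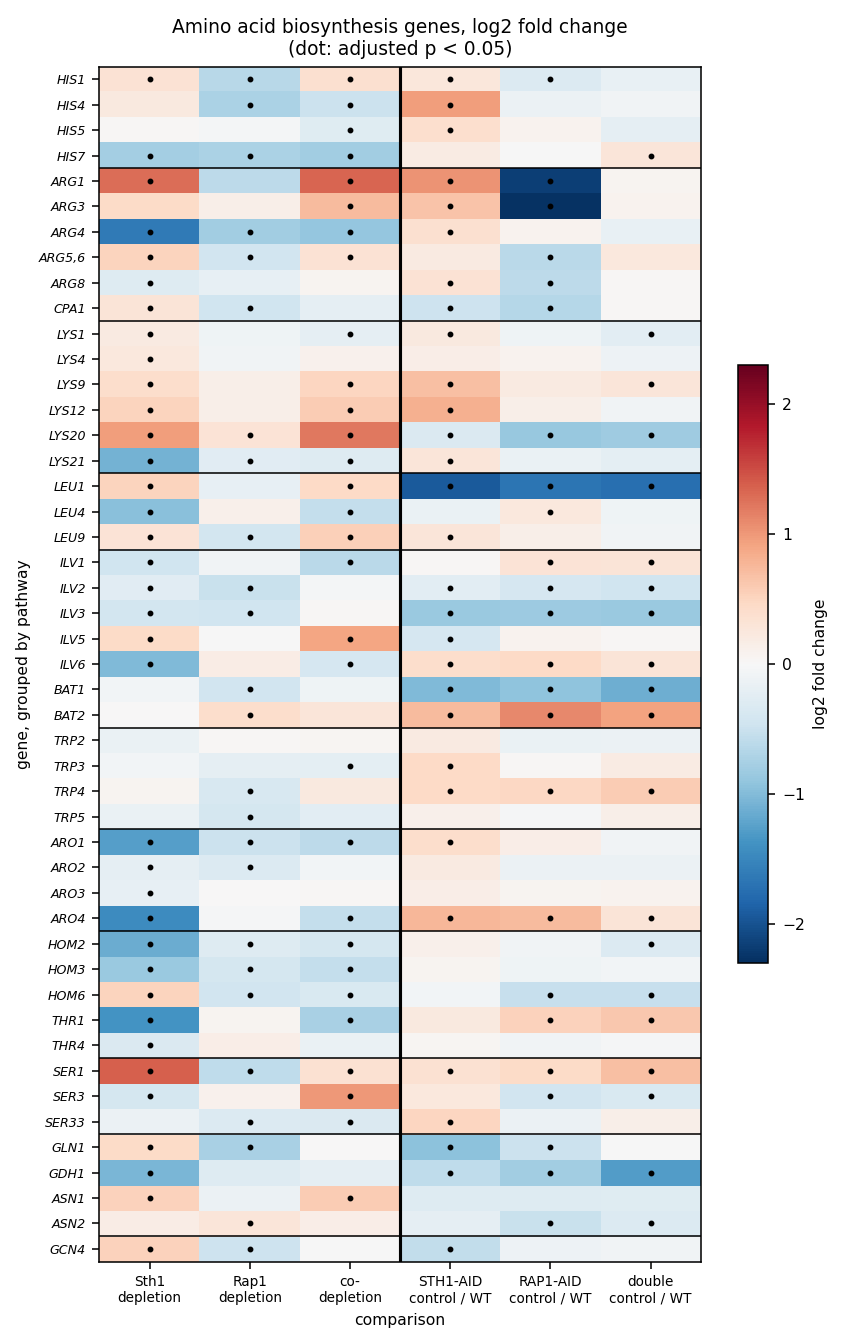
Fitted log2 fold changes of 47 of the 48 genes (rows, grouped by pathway) in 6 comparisons (columns), with the IAA effect in each strain left of the line and each DMSO control against WT right of it. Red is higher and blue lower, and a dot marks an adjusted p below 0.05, as for LYS20, BAT2 and ASN2, the 3 increases on Rap1 depletion.

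**Figure D2:**
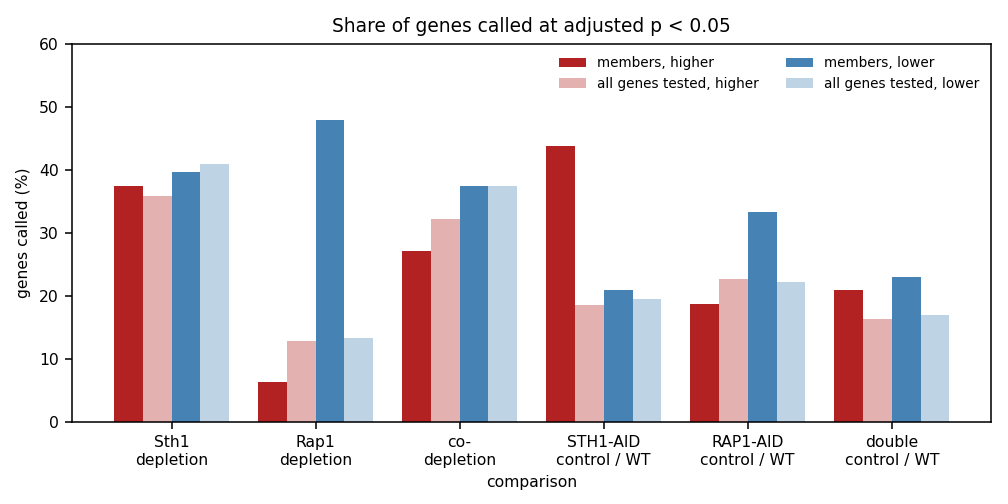
Share of genes (y axis, %) higher or lower at an adjusted p below 0.05 in each comparison (x axis), as dark bars for the 48 genes and pale bars for all 5742 tested genes. The bars differ most for Rap1 depletion, where 47.9% of the 48 genes and 13.3% of all genes were lower.

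GCN4 rose on Sth1 depletion, fell on Rap1 depletion and was near its control on co-depletion. It had 751, 757 and 661 CPM (read counts scaled to the TMM-adjusted library size) in STH1-AID IAA cells, against 535, 478 and 492 CPM in STH1-AID DMSO cells. The 2 groups did not overlap, and the log2 fold change was 0.53 ± 0.12 (SE), with an adjusted p of 5.6e-04. In RAP1-AID IAA cells it had 453, 456 and 557 CPM, against 626, 769 and 652 CPM in RAP1-AID DMSO cells, again without overlap (-0.48 ± 0.12, adjusted p = 0.0057). In RAP1-AID/STH1-AID IAA cells the values were 705, 751 and 639.6 CPM, against 747, 772 and 596 CPM in the DMSO cells of that strain, and the groups overlapped (-0.01 ± 0.12, adjusted p = 0.93). The STH1-AID control was itself below the WT cells, which had 778, 641 and 812 CPM (-0.57 ± 0.12, adjusted p = 0.001), and the STH1-AID IAA libraries lay within the range of the WT libraries. No such difference was called for the RAP1-AID control (-0.12, adjusted p = 0.42) or the double control (-0.08, adjusted p = 0.66).

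Across the 7 condition means of log2 CPM, the 3 genes with the pattern most like that of GCN4 were GLN1 (Pearson r = 0.90), CPA1 (r = 0.78) and ASN1 (r = 0.65), and the least like was ARO4 (r = -0.68). These values describe 7 means that share libraries and strains. Of the 13 other genes listed for general control, 5 rose and 3 fell on Sth1 depletion. On Rap1 depletion 0 rose and 1 fell, and on co-depletion 7 rose and 2 fell. These 13 include PCL5, a gene that acts on Gcn4 protein rather than upstream of GCN4. Its increases on Sth1 depletion and co-depletion were the largest of the list. The shares on Sth1 depletion, 38.5% and 23.1%, stand against 35.9% and 40.9% of all genes, those on Rap1 depletion, 0% and 7.69%, against 12.8% and 13.3%, and those on co-depletion, 53.8% and 15.4%, against 32.2% and 37.5%. GCN2, the sensor kinase, had a log2 fold change of 0.54 on Sth1 depletion and 0.27 on co-depletion, both called, and of -0.30 on Rap1 depletion, which was not. PCL5, a cyclin that promotes the turnover of Gcn4 protein and is itself a Gcn4 target, rose by 1.31 and 1.80 on the log2 scale on Sth1 depletion and co-depletion, and its value on Rap1 depletion was 0.05 (adjusted p = 0.72).

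Among the histidine genes, HIS4, a multifunctional enzyme gene whose promoter was the first sequence above, fell wherever Rap1 was depleted. HIS4 had 206, 179.6 and 197 CPM in RAP1-AID IAA cells, against 358, 282 and 329 CPM in RAP1-AID DMSO cells. It fell there by 0.73 on the log2 scale (SE 0.11, adjusted p = 4.9e-05), and every IAA library was below every DMSO library. On co-depletion it had 226, 214 and 268 CPM in IAA cells, against 308, 339 and 349 CPM in DMSO cells (-0.49 ± 0.11, adjusted p = 6.1e-04). On Sth1 depletion alone it had 785, 717 and 901 CPM, against 711, 627 and 727 CPM in STH1-AID DMSO cells (0.22 ± 0.11, adjusted p = 0.077), a difference that did not pass. The STH1-AID control was above WT, which had 360.3, 319 and 379.5 CPM (0.96 ± 0.11, adjusted p = 2.5e-06), while the RAP1-AID and double controls had values of -0.13 and -0.09 that were not called.

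HIS1 (YER055C), ATP phosphoribosyltransferase at the entry of the pathway, rose on Sth1 depletion (0.32) and co-depletion (0.36) and fell on Rap1 depletion (-0.65). Its libraries in RAP1-AID IAA cells were at 93.5, 104 and 125 CPM, against 163, 169 and 172 CPM in RAP1-AID DMSO cells, and in RAP1-AID/STH1-AID IAA cells at 235, 233 and 254 CPM, against 188, 171 and 203 CPM in the DMSO cells of that strain. HIS7 (YBR248C), imidazole glycerol phosphate synthase, fell in all 3 depletions, by 0.77, 0.72 and 0.81 on the log2 scale for Sth1, Rap1 and both. After co-depletion it had 144, 144 and 154 CPM in IAA cells, against 257, 227 and 289.7 CPM in DMSO cells. HIS5 (YIL116W), the aminotransferase, fell on co-depletion (-0.29), with values of 0.02 on Sth1 depletion and -0.04 on Rap1 depletion that did not pass.

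The arginine genes split inside the pathway. ARG1 (YOL058W), argininosuccinate synthetase, and ARG4 (YHR018C), argininosuccinate lyase, catalyse consecutive steps and moved in opposite directions on Sth1 depletion. ARG1 had 441, 428 and 515 CPM in STH1-AID IAA cells, against 184, 181 and 204 CPM in STH1-AID DMSO cells (1.28 ± 0.21, adjusted p = 2.2e-05). ARG4 had 27.1, 28.4 and 28.6 CPM in STH1-AID IAA cells, against 79.3, 84.2 and 96.1 CPM in STH1-AID DMSO cells (-1.63 ± 0.08, adjusted p = 2.0e-12), the largest decrease among the 48 genes in this comparison. Neither gene overlapped between its groups. The split was also present on co-depletion, where ARG1 had 235, 193 and 305 CPM in IAA cells, against 88.5, 72.1 and 129 CPM in DMSO cells (1.34 ± 0.22, adjusted p = 2.2e-05), and ARG4 had 35.3, 30.1 and 30.5 CPM in IAA cells, against 60.8, 58.1 and 58.4 CPM in DMSO cells (-0.89 ± 0.08, adjusted p = 1.8e-08).

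On Rap1 depletion ARG4 had 39.1, 42.3 and 40.4 CPM in RAP1-AID IAA cells, against 71.8, 69.1 and 71.0 CPM in RAP1-AID DMSO cells (-0.80 ± 0.08, adjusted p = 1.6e-07). ARG1 stood at 10.5, 11.4 and 18.8 CPM in RAP1-AID IAA cells, against 18.6, 17.4 and 25.6 CPM in RAP1-AID DMSO cells (-0.60 ± 0.23, adjusted p = 0.063). The ARG1 groups overlapped, and the difference passed with replicate number as a block (-0.61, adjusted p = 0.001). ARG5,6 (YER069W), which encodes enzymes of ornithine synthesis, and CPA1 (YOR303W) rose on Sth1 depletion (0.50 and 0.30) and fell on Rap1 depletion (-0.43 and -0.45). ARG8, acetylornithine aminotransferase, fell on Sth1 depletion (-0.29) and had values of -0.19 on Rap1 depletion and 0.06 on co-depletion that did not pass. ARG3 rose on co-depletion (0.72), with values of 0.44 on Sth1 depletion and 0.13 on Rap1 depletion that did not pass.

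Without IAA, some arginine genes already stood apart in the RAP1-AID strain. ARG1 had 18.6, 17.4 and 25.6 CPM in RAP1-AID DMSO cells, against 83.0, 85.5 and 108 CPM in WT cells (-2.17 ± 0.23, adjusted p = 4.0e-07), and ARG3 had 3.15, 4.30 and 4.06 CPM, against 17.1, 18.4 and 20.2 CPM in WT cells (-2.27 ± 0.24, adjusted p = 3.5e-07). ARG5,6 and ARG8 were lower as well (-0.62 and -0.60). All 4 genes listed as arginine-repressed were thus lower in this control, with a median of -1.39, where 22.1% of all genes were lower. The list was drawn up with earlier results of these data known. In the STH1-AID control 3 of these 4 genes were higher than in WT, where 18.5% of all genes were higher. Among them ARG1 was at 184, 181 and 204 CPM (1.04 ± 0.22, adjusted p = 8.5e-04). ARG3 was at 18.3, 33.4 and 35.5 CPM (0.65 ± 0.21, adjusted p = 0.019). In the double control none of the 4 was called, where 16.3% of all genes were higher and 17% lower. Outside this list, CPA1 had 299, 332 and 338 CPM in RAP1-AID DMSO cells and 415, 346 and 350 CPM in STH1-AID DMSO cells. Every one of these libraries was below every WT library (539, 446 and 551 CPM). ARG4 had 71.8, 69.1 and 71.0 CPM in RAP1-AID DMSO cells, overlapping WT (64.5, 64.7 and 71.5 CPM). Its STH1-AID DMSO libraries, at 79.3, 84.2 and 96.1 CPM, were above every WT library. For ARG3, STH1-AID DMSO replicate 1 lay within the WT range, and the call was lost without STH1-AID DMSO replicate 2 or 3 or WT replicate 1 (0.48 to 0.61, adjusted p = 0.11 to 0.066). ARG80, which encodes a subunit of the arginine repressor, is not among the 48 genes and was singled out after its values were seen. It had 38.0, 41.5 and 37.9 CPM in RAP1-AID DMSO cells, against 12.9, 12.0 and 10.8 CPM in WT cells (1.72, adjusted p = 1.2e-09). In RAP1-AID IAA cells it was at 38.6, 40.5 and 43.0 CPM, and in the double control at 18.5, 16.0 and 15.1 CPM. Set against each other in the same fit, a comparison added after the data were seen, the RAP1-AID control minus the double control gave log2 differences of -2.23 for ARG1, -2.35 for ARG3 and 1.24 for ARG80 (adjusted p = 1.67e-06, 1.54e-06 and 6.46e-07). Whether ARG80 has a part in the arginine gene levels was not tested.

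**Figure D3:**
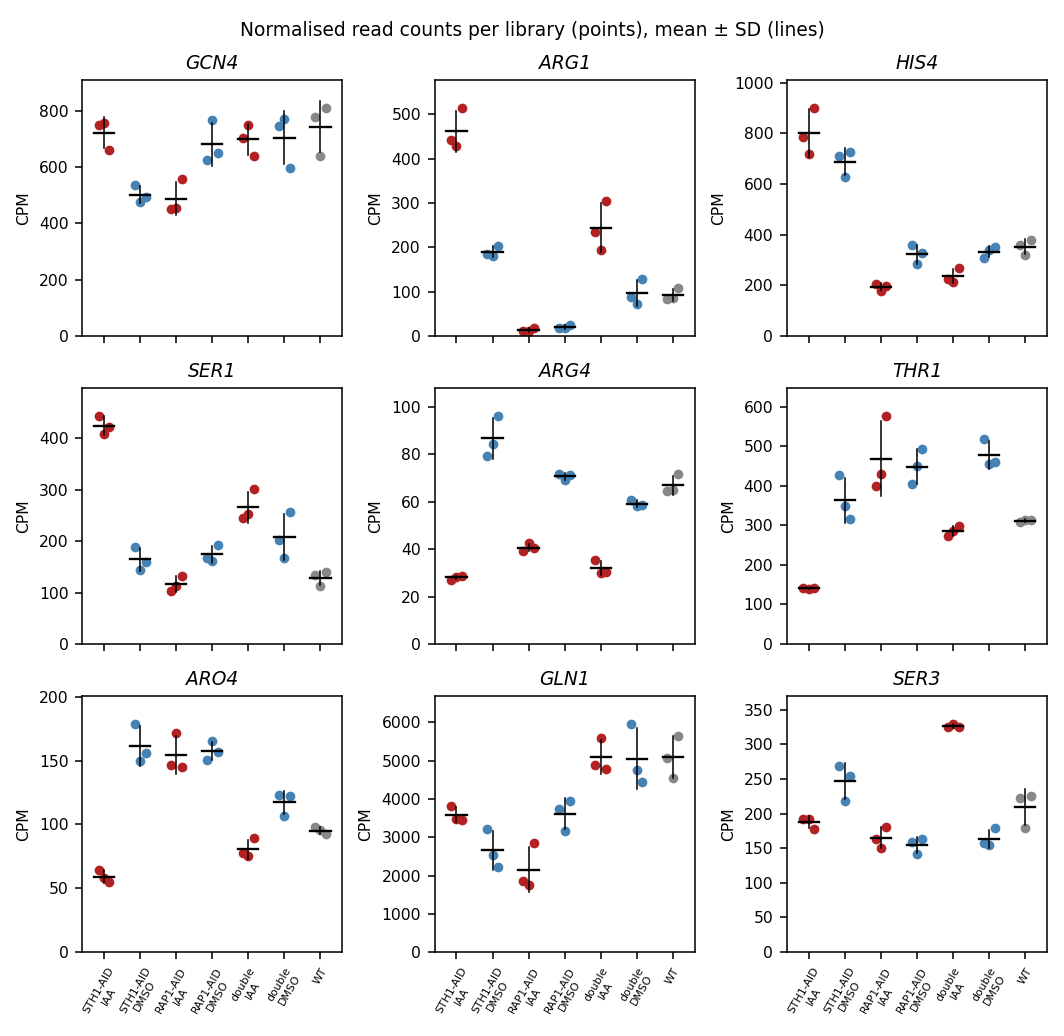
Normalised read counts (CPM, y axis from 0) of 9 genes in each of the 21 libraries by condition (x axis), red for IAA, blue for DMSO and grey for WT, with short lines at the mean and the SD over 3 replicates as a vertical line ("double" is RAP1-AID/STH1-AID). ARG1 and SER1 were higher in STH1-AID IAA than in STH1-AID DMSO cells, while ARG4, THR1 and ARO4 were lower there.

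Of the 6 lysine genes, 5 rose and 1 fell in STH1-AID IAA cells, with a median of 0.32, where 35.9% of all genes rose and 40.9% fell. With scaling by library total the increases of LYS12 and LYS20 were still called and those of LYS1, LYS4 and LYS9 were not. LYS12 (YIL094C), homoisocitrate dehydrogenase, and LYS9, a saccharopine dehydrogenase, rose by 0.50 and 0.40 on the log2 scale, and on co-depletion by 0.58 and 0.50. LYS4, homoaconitase, and LYS1, the last enzyme of the pathway, rose by 0.24 and 0.22. Under that scaling LYS4, LYS1 and LYS9 had values of -0.01, -0.04 and 0.15. Rap1 depletion left LYS1, LYS4, LYS9 and LYS12 without a call, at -0.09, -0.07, 0.14 and 0.14. LYS12 stood above WT in STH1-AID DMSO cells, at 163, 146 and 155 CPM, against 87.8, 92.9 and 81.6 CPM in WT cells (0.82 ± 0.09, adjusted p = 1.2e-06). LYS14, the activator gene of the pathway, had log2 fold changes of 0.20 on Sth1 depletion and 0.26 on co-depletion, both called.

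LYS20 (YDL182W) and LYS21 (YDL131W) both encode homocitrate synthase, the entry enzyme of lysine synthesis, and they moved apart. LYS20 had 398, 345 and 392 CPM in STH1-AID IAA cells, against 208, 177 and 201 CPM in STH1-AID DMSO cells (0.95 ± 0.10, adjusted p = 4.5e-08). LYS21 had 47.4, 45.9 and 47.1 CPM in STH1-AID IAA cells, against 105, 92.5 and 100.5 CPM in STH1-AID DMSO cells (-1.09 ± 0.09, adjusted p = 3.0e-09). The same split was present on co-depletion, with LYS20 at 338, 311 and 327 CPM in IAA cells, against 151, 119.7 and 149 CPM in DMSO cells (1.22), and LYS21 at 59.2, 49.5 and 61.2 CPM in IAA cells, against 69.9, 64.6 and 75.1 CPM in DMSO cells (-0.30). On Rap1 depletion LYS20 had 149, 179 and 178 CPM in IAA cells, against 123, 143 and 139 CPM in DMSO cells (0.32), and LYS21 had 55.9, 60.9 and 67.0 CPM, against 72.7, 78.0 and 69.7 CPM (-0.26), and both of these calls were lost without some single libraries, for LYS20 without RAP1-AID DMSO replicate 1 (0.26, adjusted p = 0.099). The coding sequences are 88.1% identical with a shared stretch of 278 bases, and both genes had expected counts that were not whole in all 21 libraries, so part of their reads was divided between them by the authors' estimation. LYS20 was also lower in all 3 DMSO controls than in WT cells, which had 247, 234 and 258 CPM, by 0.33, 0.87 and 0.82 on the log2 scale for the STH1-AID, RAP1-AID and double controls.

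The other paralog pairs behaved in different ways. LEU4 (YNL104C) and LEU9 (YOR108W), both isopropylmalate synthases at the entry of leucine synthesis, moved in opposite directions on Sth1 depletion: LEU4 had 107, 98.9 and 112 CPM in IAA cells, against 223, 193 and 206 CPM in DMSO cells (-0.97, adjusted p = 3.9e-10), and LEU9 had 252, 233 and 260.0 CPM in IAA cells, against 212, 180.4 and 204 CPM in DMSO cells (0.32, adjusted p = 0.004). On co-depletion LEU4 had 149, 151 and 144 CPM, against 236, 206 and 206 CPM in DMSO cells, and LEU9 had 226, 204 and 249 CPM, against 159, 138 and 165 CPM in DMSO cells, again apart (-0.54 and 0.55). On Rap1 depletion LEU9 fell, with 129, 141 and 131 CPM in IAA cells, against 177, 176 and 187 CPM in DMSO cells (-0.43), while LEU4, at 295, 295 and 299 CPM, against 285, 271 and 263 CPM in DMSO cells, was not called (0.12, adjusted p = 0.23).

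ARO3 (YDR035W) and ARO4 (YBR249C) encode the DAHP synthases that open aromatic synthesis. ARO4 had 64.4, 58.1 and 54.5 CPM in STH1-AID IAA cells, against 179, 149 and 156 CPM in STH1-AID DMSO cells (-1.45 ± 0.09, adjusted p = 6.8e-11), whereas ARO3 had 135, 131 and 133 CPM, against 155, 154 and 145 CPM in STH1-AID DMSO cells (-0.19, adjusted p = 0.02). On co-depletion ARO4 fell by 0.54, with 77.4, 75.0 and 89.2 CPM in IAA cells, against 123, 107 and 122 CPM in DMSO cells, and ARO3 was at 0.03 (adjusted p = 0.7). Neither was called on Rap1 depletion (-0.03 and 0.01). ARO4 was above WT in all 3 controls, at 151, 165 and 156 CPM in RAP1-AID DMSO cells, against 97.7, 95.4 and 92.3 CPM in WT cells (0.73), and with log2 fold changes of 0.76 and 0.30 in the STH1-AID and double controls.

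SER3 (YER081W) and SER33 (YIL074C) encode the phosphoglycerate dehydrogenases of serine synthesis, and SER3 is known as a gene kept low by a noncoding transcript read through its promoter. SER3 gave different values in each depletion. It fell on Sth1 depletion, with 192, 193 and 179 CPM in IAA cells, against 269, 218 and 255 CPM in DMSO cells (-0.40 ± 0.10, adjusted p = 0.0012), and rose on co-depletion, with 325, 330.0 and 326 CPM in IAA cells, against 157, 154 and 179 CPM in DMSO cells (1.00 ± 0.10, adjusted p = 6.0e-08). On Rap1 depletion it had 163, 151 and 181 CPM in IAA cells, against 159, 141 and 164 CPM in DMSO cells, with overlapping groups (0.09, adjusted p = 0.53). SER33 had 99.5, 80.2 and 84.8 CPM in STH1-AID IAA cells, against 107, 87.9 and 96.0 CPM in STH1-AID DMSO cells (-0.14, adjusted p = 0.23), and fell on Rap1 depletion (-0.32) and co-depletion (-0.34).

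ASN1 (YPR145W) and ASN2 (YGR124W), the asparagine synthetases, were both at or above their controls after Sth1 depletion. ASN1 had 1337, 1177 and 1413 CPM in STH1-AID IAA cells, against 982, 854 and 869 CPM in STH1-AID DMSO cells (0.54 ± 0.13, adjusted p = 6.9e-04), and 1409, 1261 and 1399.6 CPM after co-depletion, against 1039, 797 and 896 CPM in its DMSO cells (0.58). ASN2 was not called in either (0.17 and 0.15). On Rap1 depletion ASN2 had 477, 489 and 599.9 CPM in IAA cells, against 425, 441 and 432 CPM in DMSO cells (0.27 ± 0.09, adjusted p = 0.027), and this call was lost without RAP1-AID IAA replicate 3 (0.16, adjusted p = 0.17). Coding identities were 76.8% for LEU4 and LEU9, 63.4% for ARO3 and ARO4, 82.4% for SER3 and SER33, 81% for ASN1 and ASN2 and 68.4% for the pair BAT1 and BAT2 below. Counts that were not whole occurred at SER3 in 14 libraries and at ASN1 and ASN2 in 7 each, and never at LEU4, LEU9, ARO3, ARO4, SER33, BAT1 or BAT2.

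**Figure D4:**
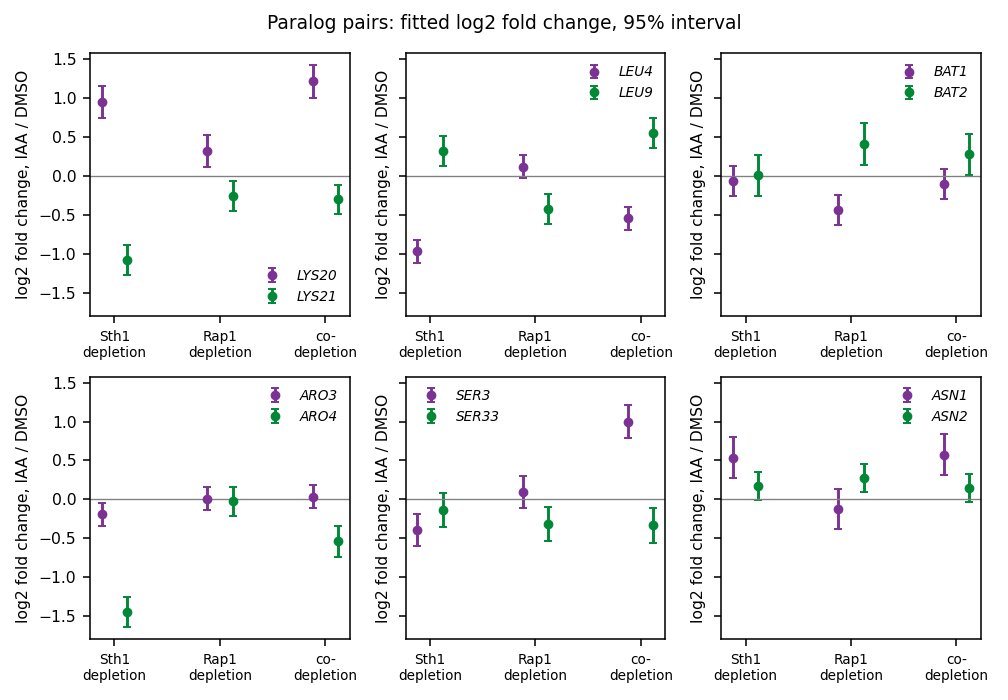
Fitted log2 fold changes (y axis, IAA over DMSO) with their 95% intervals for both members of 6 paralog pairs in the 3 depletions (x axis). LYS20 and LYS21, and LEU4 and LEU9, lie on opposite sides of 0 on Sth1 depletion and co-depletion.

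LEU1, BAT1 and ILV3 were lower in all 3 DMSO controls than in WT cells, while other genes of these pathways went both ways. Of the 7 isoleucine and valine genes, BAT1 and ILV3 included, 2 were higher and 4 lower in the STH1-AID control (all genes 18.5% and 19.4%). In the RAP1-AID control 3 were higher and 3 lower (all genes 22.7% and 22.1%), as in the double control (all genes 16.3% and 17%). LEU1 (YGL009C), isopropylmalate isomerase, had 246, 199.7 and 224 CPM in STH1-AID DMSO cells, 279, 251 and 259 CPM in RAP1-AID DMSO cells and 277, 246 and 244 CPM in RAP1-AID/STH1-AID DMSO cells, against 969.6, 741 and 834 CPM in WT cells. No control library came near the lowest WT library, and the log2 fold changes were -1.93 ± 0.11, -1.69 ± 0.11 and -1.73 ± 0.11 (adjusted p = 5.9e-10, 9.7e-10 and 1.2e-09). BAT1 (YHR208W), the mitochondrial branched-chain aminotransferase, had 174, 157 and 157 CPM in STH1-AID DMSO cells, 165, 185 and 166 CPM in RAP1-AID DMSO cells and 154, 141 and 153 CPM in RAP1-AID/STH1-AID DMSO cells, against 371, 296 and 314 CPM in WT cells (-1.01, -0.93 and -1.13). ILV3 (YJR016C), dihydroxyacid dehydratase, had 855, 690.2 and 745 CPM in STH1-AID DMSO cells, 798, 769 and 756 CPM in RAP1-AID DMSO cells and 834, 746 and 705 CPM in RAP1-AID/STH1-AID DMSO cells, against 1498, 1250.2 and 1395 CPM in WT cells (-0.86, -0.84 and -0.86). For both genes, too, every control library was below every WT library. These are the 3 genes with a Leu3 core shown above apart from ARG1, which was not lower in the STH1-AID and double controls.

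Of the 6 genes listed as Leu3 targets, 5 were lower and 0 higher in the STH1-AID control, 4 lower and 1 higher in the RAP1-AID control, and 4 lower and 0 higher in the double control, with medians of -0.49, -0.59 and -0.79, where 19.4%, 22.1% and 17% of all genes were lower. The list holds LEU1, LEU4, ILV2, ILV5, BAT1 and GDH1, and not ILV3. It was drawn up with earlier results of these data known, so its counts are a description and not a test. It includes GDH1 (YOR375C), NADP-dependent glutamate dehydrogenase, with 115, 92.3 and 105 CPM in RAP1-AID/STH1-AID DMSO cells, against 248, 217 and 293 CPM in WT cells (-1.28 ± 0.11, adjusted p = 5.9e-08), and ILV2, acetolactate synthase, at -0.24, -0.38 and -0.45 in the STH1-AID, RAP1-AID and double controls. LEU4 was not called in the STH1-AID and double controls and was higher in the RAP1-AID control (0.24). ILV5 was lower in the STH1-AID control (-0.39) and was not called in the RAP1-AID and double controls (0.08 and 0.03). Of the genes outside the list, LEU9 was higher in the STH1-AID control (0.29) and had values of 0.14 and -0.08 in the RAP1-AID and double controls that did not pass. ILV6 was higher in all 3 controls (0.41, 0.46 and 0.30), and ILV1 had values of 0.03, 0.32 and 0.30, of which the RAP1-AID and double ones were called. LEU3 itself was higher in the RAP1-AID and double controls (0.42 and 0.39) and had a value of 0.13 in the STH1-AID control (adjusted p = 0.19). BAT2 (YJR148W), the cytosolic aminotransferase, went the other way from BAT1, with 336, 248 and 263 CPM in STH1-AID DMSO cells, 376, 399.9 and 336 CPM in RAP1-AID DMSO cells and 344, 257 and 375 CPM in RAP1-AID/STH1-AID DMSO cells, against 160.4, 173 and 180.0 CPM in WT cells (0.72, 1.11 and 0.92). The degron strains carry the LEU marker of the OsTIR1 construct, which the paper's genotypes write as LEU2, and WT cells do not. LEU2 was nevertheless at 0 counts in both, so no reads of the marker were assigned to LEU2. The reason was not tested. The marker, OsTIR1, the degrons and DMSO cannot be told apart as the difference behind these levels.

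**Figure D5:**
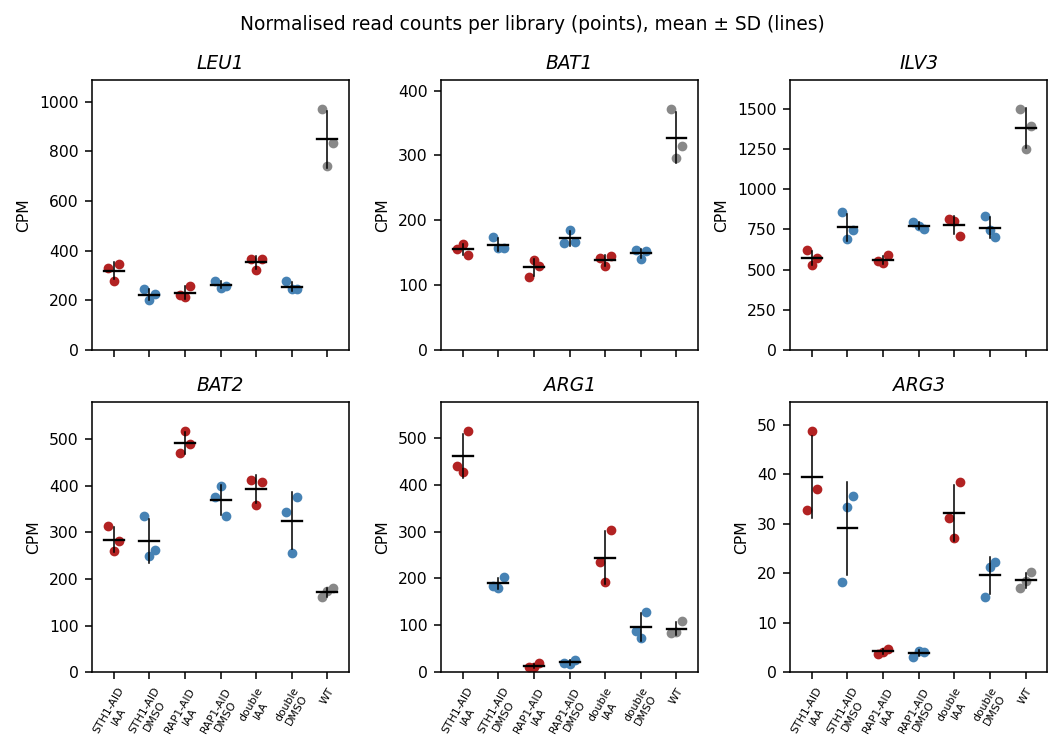
Normalised read counts (CPM, y axis from 0) of 6 genes in each of the 21 libraries by condition (x axis), red for IAA, blue for DMSO and grey for WT, with short lines at the mean and the SD over 3 replicates as a vertical line. LEU1, BAT1 and ILV3 lie below WT in every library of the degron strains, BAT2 lies above it, and ARG1 and ARG3 are low in the RAP1-AID strain.

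IAA also moved these genes within the degron strains. LEU1 rose on Sth1 depletion, with 332, 279.8 and 347 CPM in STH1-AID IAA cells (0.52), and on co-depletion, with 368, 324 and 367 CPM (0.47), and every one of these libraries was below every WT library. BAT1 and ILV3 fell on Rap1 depletion (-0.43 and -0.46), BAT2 rose there, with 469.6, 517 and 490.4 CPM in IAA cells, against 376, 399.9 and 336 CPM in DMSO cells (0.41 ± 0.13, adjusted p = 0.022), and ILV2 fell (-0.51). BAT1 had 155, 164 and 146 CPM in STH1-AID IAA cells (-0.07, adjusted p = 0.52). ILV3 had 619, 527 and 572 CPM in STH1-AID IAA cells, against 855, 690.2 and 745 CPM in STH1-AID DMSO cells. Every one of these IAA libraries was below every DMSO library, so ILV3 was lower there too. ILV5 (YLR355C), the reductoisomerase, rose on Sth1 depletion (0.44) and co-depletion (0.90). ILV6 (YCL009C), the regulatory subunit of acetolactate synthase, fell on Sth1 depletion, with 96.7, 106 and 101 CPM in IAA cells, against 218, 205 and 189 CPM in DMSO cells (-1.01 ± 0.11, adjusted p = 5.5e-08), and on co-depletion (-0.39), while its catalytic partner ILV2 had values of -0.26 and -0.04, of which the co-depletion value was not called. ILV1, threonine deaminase at the entry of isoleucine synthesis, fell on Sth1 depletion (-0.46) and co-depletion (-0.63).

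On Sth1 depletion, where 40.9% of all genes fell, 4 of 4 shikimate genes and 4 of 5 homoserine and threonine genes fell. The shikimate genes had a median log2 fold change of -0.73. ARO1 (YDR127W), the large multifunctional enzyme of the middle of the pathway, fell by 1.26 on the log2 scale and ARO2, chorismate synthase, by 0.20, and the calls of ARO2 and ARO3 were lost with DESeq2's size factors (-0.16 and -0.15). The homoserine and threonine genes had a median of -0.86. THR1 (YHR025W), homoserine kinase, had 142, 139.7 and 141 CPM in STH1-AID IAA cells, against 426, 349 and 316 CPM in STH1-AID DMSO cells (-1.37 ± 0.12, adjusted p = 5.5e-09). HOM2 (YDR158W) and HOM3 (YER052C), the reductase and kinase of the common aspartate branch, fell by 1.15 and 0.86, and THR4, threonine synthase, by 0.33. The exception was HOM6 (YJR139C), homoserine dehydrogenase, with 124, 124 and 79.6 CPM in IAA cells, against 70.0, 76.5 and 84.0 CPM in DMSO cells (0.51 ± 0.13, adjusted p = 0.0021). IAA replicate 3 lay within the range of the DMSO libraries.

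In the other strains these genes fell in part. On co-depletion THR1 had 274, 286 and 299.7 CPM in IAA cells, against 519, 455 and 461 CPM in DMSO cells (-0.74 ± 0.12, adjusted p = 2.3e-05), and ARO1, HOM2, HOM3 and HOM6 fell by 0.59, 0.41, 0.55 and 0.35. Rap1 depletion lowered ARO1 (-0.50), ARO2 (-0.31), HOM2 (-0.29), HOM3 (-0.40) and HOM6 (-0.44) but gave no call at THR1, with 399, 429 and 577 CPM in IAA cells, against 404, 449 and 492 CPM in DMSO cells (0.06, adjusted p = 0.73), or at THR4 (0.16). THR1 was above WT in the RAP1-AID and double controls, at 519, 455 and 461 CPM in RAP1-AID/STH1-AID DMSO cells, against 309, 315 and 313 CPM in WT cells (0.52 and 0.61 in these controls). None of the 4 tryptophan genes was called on Sth1 depletion, where 35.9% of all genes rose and 40.9% fell. The tryptophan genes had values there of -0.16 for TRP2, -0.06 for TRP3, 0.06 for TRP4 and -0.14 for TRP5. TRP4, anthranilate phosphoribosyl transferase, and TRP5, tryptophan synthase, fell on Rap1 depletion (-0.37 and -0.40), and TRP3 fell on co-depletion (-0.23), a call lost under DESeq2 (-0.18, adjusted p = 0.12).

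SER1 (YOR184W), phosphoserine aminotransferase, had the largest increase of the 48 genes on Sth1 depletion. It had 444, 407 and 422 CPM in STH1-AID IAA cells, against 189, 145 and 159.9 CPM in STH1-AID DMSO cells (1.37 ± 0.14, adjusted p = 3.5e-08), and every IAA library was above every DMSO library. On Rap1 depletion the direction was opposite, with 103, 113 and 133 CPM in IAA cells, against 168, 162 and 192 CPM in DMSO cells (-0.59 ± 0.14, adjusted p = 0.0038). After co-depletion it had 246, 252 and 301 CPM in IAA cells, against 203, 168 and 256 CPM in DMSO cells, with overlapping groups (0.35 ± 0.14, adjusted p = 0.029). The co-depletion call was lost without double DMSO replicate 2 (0.21, adjusted p = 0.18). SER1 was above WT in the double control (0.70, adjusted p = 6.3e-04), where WT cells had 134, 113 and 139 CPM. The STH1-AID DMSO and RAP1-AID DMSO libraries given above were all above every WT library as well.

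GLN1, the gene with the highest level, fell on Rap1 depletion. It had 1867, 1762 and 2841 CPM in RAP1-AID IAA cells, against 3730.1, 3168 and 3944 CPM in RAP1-AID DMSO cells (-0.74 ± 0.18, adjusted p = 0.0038), with all IAA libraries below all DMSO libraries. On Sth1 depletion it had 3826, 3488 and 3460.3 CPM in IAA cells, against 3221, 2532 and 2220.3 CPM in DMSO cells (0.43 ± 0.18, adjusted p = 0.031), a call lost under scaling by library total (0.19, adjusted p = 0.25) and without STH1-AID DMSO replicate 3 (0.31, adjusted p = 0.15). On co-depletion the value was 0.01 (adjusted p = 0.96). The STH1-AID control was below WT, which had 5073, 4543 and 5651 CPM (-0.94 ± 0.18, adjusted p = 3.6e-04). The RAP1-AID DMSO libraries given above also lay below every WT library, while those of the double control overlapped WT. GDH1 fell on Sth1 depletion, with 82.3, 76.2 and 83.3 CPM in IAA cells, against 171, 159 and 173 CPM in DMSO cells (-1.06 ± 0.11, adjusted p = 6.5e-08). Its value on Rap1 depletion was -0.30 (adjusted p = 0.051, and 0.038 with replicate number as a block), and on co-depletion -0.21 (adjusted p = 0.11).

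The difference between strains in the response to IAA was tested directly. For co-depletion minus Sth1 depletion, 14 of the 48 genes had a positive and 7 a negative difference, where 19.6% and 10.5% of all genes did. The largest positive differences were at SER3 (1.40 ± 0.14), ARO4 (0.91 ± 0.13) and GDH1 (0.85 ± 0.16), and SER1 (-1.02 ± 0.19) and HOM6 (-0.86 ± 0.19) were among the most negative. GCN4 differed by -0.54 ± 0.17 (adjusted p = 0.021), a call lost when any of 5 single libraries was left out (STH1-AID DMSO replicate 2, STH1-AID IAA replicate 2, RAP1-AID/STH1-AID DMSO replicates 1 and 2 and IAA replicate 3, with -0.45 and an adjusted p of 0.065 without the last). HIS4 differed by -0.71 ± 0.16 (adjusted p = 0.0019). ARG1 did not differ beyond its error (0.06 ± 0.30, adjusted p = 0.91), with a 95% interval of -0.57 to 0.68.

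For co-depletion minus Rap1 depletion, 18 of the 48 genes had a positive and 6 a negative difference, where 25.7% and 29.3% of all genes did. Under scaling by library total, which put the median difference of all genes at -0.35, 10 were positive and 17 negative. The largest positive differences were at ARG1 (1.94 ± 0.32), HIS1 (1.01 ± 0.13) and LEU9 (0.98 ± 0.13), and the most negative at THR1 (-0.80 ± 0.17), LEU4 (-0.66 ± 0.10) and ILV6 (-0.55 ± 0.15). ARG1 started from a much lower level in the RAP1-AID control than in the double control, as given above. ILV6 had 133, 146 and 154 CPM in RAP1-AID/STH1-AID IAA cells, against 199, 178 and 189.9 CPM in the DMSO cells of that strain, and 203, 231 and 278 CPM in RAP1-AID IAA cells, against 185, 227 and 223 CPM in RAP1-AID DMSO cells. GCN4 differed by 0.47 ± 0.17 (adjusted p = 0.025), a call lost under scaling by library total (0.15, adjusted p = 0.43) and when any of 5 single libraries was left out (RAP1-AID DMSO replicate 2, RAP1-AID IAA replicates 1 and 2, RAP1-AID/STH1-AID DMSO replicate 3 and IAA replicate 2), with 0.36 and an adjusted p of 0.079 without the double DMSO replicate 3. For HIS4 the difference was 0.24 ± 0.16 (adjusted p = 0.2), with a 95% interval of -0.09 to 0.57. SER3 and SER1 were positive in this contrast (0.91 and 0.94).

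The 32 genes with a Gcn4 core in the 300 bases before the start codon gave 12 increases and 12 decreases on Sth1 depletion, with a median of -0.02, so that 37.5% went each way, where 35.9% of all genes rose and 40.9% fell. The 16 genes without those letters gave 6 and 7, with a median of -0.07. On Rap1 depletion the counts were 1 increase and 17 decreases with the core (median -0.34), and 2 and 6 without it (median -0.13), where 12.8% of all genes rose and 13.3% fell. On co-depletion they were 8 and 15 with the core (median -0.18), and 5 and 3 without it (median 0.01), where 32.2% of all genes rose and 37.5% fell. No test was made between these groups. The 5 genes with the Lys14 letters gave 4 increases and 1 decrease on Sth1 depletion, and with scaling by library total the increases of LYS1, LYS9 and LEU9 were not called. LYS20, the lysine gene with the largest increase, had none of the Gcn4, Lys14, Leu3, Rap1 or Reb1 letters in the window, and no CGCGC. A-tracks, which the paper links with RSC, were not searched there.

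Outside the 48 genes, 17 other amino acid biosynthesis genes were listed, of which 16 could be tested. Of these 4 rose and 7 fell on Sth1 depletion, 2 rose and 5 fell on Rap1 depletion, and 6 rose and 8 fell on co-depletion. As shares these were 25% and 43.8%, against 35.9% and 40.9% of all genes, on Sth1 depletion, 12.5% and 31.2%, against 12.8% and 13.3%, on Rap1 depletion, and 37.5% and 50%, against 32.2% and 37.5%, on co-depletion. PRO1, glutamate kinase of proline synthesis, is named because of its value: it had 6.24, 4.97 and 4.62 CPM in RAP1-AID IAA cells, against 64.9, 58.1 and 66.4 CPM in RAP1-AID DMSO cells (-3.58, adjusted p = 1.4e-14), a larger decrease than that of any of the 48 genes. Purine synthesis, which shares the activator Bas1 with HIS4, gave 10 increases and 1 decrease among 11 genes on Sth1 depletion (median 1.33), 0 and 8 on Rap1 depletion (median -0.64), and 10 and 1 on co-depletion (median 0.77). The 18 methionine and sulfate assimilation genes gave 14 and 2, 1 and 5, and 11 and 3 in the same order, against the same shares of all genes. BAS1 itself rose by 0.94 on Sth1 depletion and 0.73 on co-depletion and fell by 0.45 on Rap1 depletion, all on the log2 scale.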

How the data were processed

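Nascent RNA bound by Rpb3-3xFLAG was sequenced in 21 libraries of 7 groups with 3 biological replicates each. Per the labels and the study's methods, the authors trimmed reads with cutadapt 1.9.1, aligned them with STAR 2.5.2a to the R64-1-1 genome and estimated strand-specific counts per gene with RSEM 1.3.0. The deposited expected counts are not normalized and can be fractional, and they were rounded before testing. The deposited TPM values are scaled to gene length and library and were used only to compare levels between genes.

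Protein-coding genes were filtered with filterByExpr and tested with edgeR 4.0.16 in R 4.3.3 (TMM scaling, quasi-likelihood fit of all 21 libraries with 1 coefficient per group, Benjamini-Hochberg adjustment over 5742 genes, threshold 0.05). CPM values use the TMM-scaled library sizes. Differences between strains are contrasts of this fit. Because TMM and depth scale each library, changes are relative. The fit was tested on simulated data. Alternatives were DESeq2 1.42.0, other scaling, filters and thresholds, the compared libraries alone, a replicate block and leaving out each library. Library totals of 18289832 to 23182315 counts give few counts only to the lowest genes.

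Same-numbered IAA and DMSO replicates deviated together in RAP1-AID cells (correlations of 0.20, 0.47 and 0.24), so the numbers were taken to pair those libraries. The calls given for Rap1 depletion nevertheless come from the fit without a replicate block, which was run as an alternative. In STH1-AID cells (0.27, 0.35 and 0.09) and RAP1-AID/STH1-AID cells (0.06, 0.47 and 0.36) not every pair passed the cutoff set on the correlation. The same-numbered library was still the best match in 6 of 6 cases in STH1-AID cells, as in RAP1-AID cells. In RAP1-AID/STH1-AID cells it was so in 5 of 6. Pairing was neither assumed nor excluded in STH1-AID and RAP1-AID/STH1-AID cells. Values per library are given for GCN4. They are given in most but not all cases for the 3 largest increases and decreases of each comparison and difference between strains, and for paralog pairs. Of the 48 genes, 1 is counted but not reported by name here. The 48 genes and all lists were chosen with earlier results of these data known. Motifs were searched in the R64 genome sequence.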

Additional observations from a re-analysis of the deposited data

Results flagged for a closer look

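The response to IAA differed between strains, by a test of the difference in the edgeR fit, at 21 of the 48 genes for co-depletion minus Sth1 depletion and at 24 of them for co-depletion minus Rap1 depletion. Over all genes, 19.6% had a positive and 10.5% a negative difference in the Sth1 contrast, and 25.7% and 29.3% in the Rap1 contrast. Pooled over both directions, the count in the Rap1 contrast says nothing particular about the 48 genes. By direction 18 of them were positive and 6 negative, a split that changed with scaling by library total, as given above. In the Sth1 contrast the named genes were SER3 (1.40), ARO4 (0.91), GDH1 (0.85), SER1 (-1.02), HOM6 (-0.86) and GCN4 (-0.54), as log2 differences. In the Rap1 contrast they were ARG1 (1.94), HIS1 (1.01), LEU9 (0.98), THR1 (-0.80), LEU4 (-0.66), ILV6 (-0.55) and GCN4 (0.47). Both GCN4 differences lost their call when some single libraries were left out, and the difference from Rap1 depletion also with scaling by library total (0.15, adjusted p = 0.43). Both contrasts use the same co-depletion libraries. The strains also differ before IAA, as the DMSO libraries of ARG1 and GCN4 show, and the part of that starting level was not tested.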

How the results depend on the processing

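Of the calls made in each comparison, 25 of 37 (Sth1 depletion), 15 of 26 (Rap1 depletion), 23 of 31 (co-depletion), 22 of 31, 20 of 25 and 12 of 21 (STH1-AID, RAP1-AID and double control against WT) held in all 14 settings, and 15 of 21 and 15 of 24 of the differences from Sth1 and Rap1 depletion in all 20. Beyond 2-fold, 2 genes rose and 8 fell on Sth1 depletion, 0 and 0 on Rap1 depletion, 2 and 0 on co-depletion, 1 and 2, 1 and 3, and 0 and 3 in the controls, and 1 and 2, and 2 and 0 in the differences. Scaling by library total gave 8 increases on Sth1 depletion, 6 increases and 15 decreases on Rap1 depletion, 18 higher in the RAP1-AID control, and 10 positive and 17 negative differences from Rap1 depletion, with medians of -0.27, -0.16, -0.26, 0.33, 0.087 and 0.055. At an adjusted p of 0.01 there were 0 increases on Rap1 depletion, 4 higher in the double control and 4 negative differences from Sth1 depletion. GCN4 on co-depletion turned to 0.036 with DESeq2 (size factors and Wald test), and with scaling by library total it turned to 0.068 in the RAP1-AID and 0.057 in the double control. Its difference from Rap1 depletion became 0.15 (adjusted p = 0.43).

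Leaving out each library gave 16 to 18 increases and 17 to 19 decreases on Sth1 depletion, 1 to 4 and 16 to 22 on Rap1 depletion, 11 to 16 and 14 to 20 on co-depletion, 16 to 22 and 7 to 11, 7 to 9 and 14 to 17, and 4 to 10 and 9 to 11 in the controls, and 10 to 15 and 5 to 8, and 15 to 19 and 5 to 7 in the differences. The medians ran from -0.08 to 0.01, -0.30 to -0.21, -0.09 to -0.01, 0.18 to 0.26, -0.13 to -0.05 and -0.12 to -0.0028. GCN4 itself ran from -0.12 to 0.066 on co-depletion, from -0.17 to 0.031 in the double control, from -0.64 to -0.45 (adjusted p = 0.0653) for its difference from Sth1 depletion and from 0.36 (adjusted p = 0.0785) to 0.57 for that from Rap1 depletion. With a replicate block, 3 genes rose and 25 fell on Rap1 depletion, 20 and 19 on Sth1 depletion and 14 and 19 on co-depletion, and no call was lost. Causes were not tested.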
